A study of Arabidopsis thaliana with 6 samples.

Results

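KRYPTONITE (KYP), also called SUVH4, is a histone methyltransferase of Arabidopsis thaliana that places methyl groups on lysine 9 of histone H3. The mark recruits the DNA methyltransferase CHROMOMETHYLASE 3, whose methylated cytosines in turn bind KYP, and this loop keeps transposons and other repeats silent. An embryo of a kyp mother develops from a mutant egg inside mutant maternal tissue, so transcripts loaded by the mother and chromatin passed on with the egg can both be affected.

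The comparison takes 4 of the 6 libraries of the series: 2 of kyp 2-4 cell embryos against 2 of wild-type (WT) 2-4 cell embryos. In the kyp group the mother was Landsberg erecta (Ler) carrying kyp-2, a single mutant allele, and the father was wild-type Columbia (Col-0), so the embryos also received a functional paternal KYP copy. In the WT group a wild-type Ler mother was crossed with the same wild-type Col-0 father. Both groups were hand-dissected at the 2-to-4 cell stage with part of the suspensor, the stalk that carries the embryo, from plants grown in 16 h light. The libraries are named kyp 11, kyp 12, WT 7 and WT 11 after the sample numbers in their titles. The other 2 libraries, a seed coat of Ler, a maternal tissue, and a Ler/Col embryo at the globular stage, both wild type, are used as levels of reference only. The maternal genotype of kyp 11 is entered in the labels both as kyp-2 and as wild type, and the titles describe its cross in the words used for WT, with kyp in the sample name. The labels do not tell whether the libraries of a group had separate parent plants, and the p-values measure only the spread between these libraries, which may be technical.

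Reads in genes numbered 1448503 in kyp 11 and 4107228 in kyp 12, against 2497236 in WT 7 and 3906315 in WT 11. Ribosomal RNA took 8.999% of reads in WT 11 and 0.804 to 1.80% in the other 5 libraries. Levels are given as CPM, read counts scaled to the library total, after TMM scaling, and seed coat and globular levels as CPM of the gene totals. The embryo label was checked on 11 markers of embryo and suspensor. All 11 had reads in both kyp libraries and 10 of 11 in each WT library. The list summed to 904 CPM in kyp 11 and 837 in kyp 12, against 1166 in WT 7 and 1009 in WT 11, but also to 852 in the seed coat. ATML1 and PDF2 had 730 and 817 reads there, while WOX2, LEC1 and BBM had 0 to 2, so the sum does not set embryo apart from seed coat. Reads of seed coat and integument markers were present in every library. The parental copy they came from was not tested. The 22 seed coat and integument markers summed to 9012 CPM in kyp 11 and 10910 in kyp 12, against 13550 in WT 7 and 8322 in WT 11, and to 9615 in the seed coat itself. Of the 21 that could be tested, 10 had a positive and 11 a negative log2 fold change, beside 49.9% and 50.1% of all genes tested, with a median of -0.08. The sum of this list need not measure seed coat alone. Its member CYP78A5 had 2282 and 4479 reads in kyp 11 and kyp 12. It had 2782 and 7247 in WT 7 and WT 11, but 131 in the seed coat. None of the 10 seed storage markers passed the filter on low counts. In tissue samples of this kind fewer cells of a type and less RNA per cell cannot be told apart.

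KYP itself had 43.4 CPM in kyp 11 and 39.4 in kyp 12, against 55.6 in WT 7 and 60.9 in WT 11. Both kyp values lie below both WT values. The difference missed the threshold, with a log2 fold change of -0.50 ± 0.42 (SE; edgeR quasi-likelihood test, adjusted p = 0.9999). The transcript overlaps a gene on the other strand, and the labels do not say whether kyp-2 lowers the transcript, so its level does not check the labels.

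Of 15997 genes tested, 5 passed the edgeR threshold of 0.05 after Benjamini-Hochberg adjustment. AT3G43960, AT5G49500 and AT2G20460 rose in kyp embryos (0.0188% of the genes) and AT5G49180 and AT1G62500 fell (0.0125%). AT3G43960 encodes a protein of the papain-like cysteine protease class, AT5G49500 a protein of the SRP54 class, part of the particle that guides nascent secretory proteins to the endoplasmic reticulum, and AT2G20460 is annotated as a pseudogene. AT5G49180 belongs to the pectin methylesterase and inhibitor class, which sets how stiff pectin in the cell wall is, and AT1G62500 to the lipid-transfer class.

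AT3G43960 reached 311 CPM in kyp 11 and 521 in kyp 12, against 14.1 in WT 7 and 28.8 in WT 11. Its log2 fold change was 4.26 ± 0.49 (SE, adjusted p = 0.0103), and its level was 33.1 CPM in the seed coat and 0.564 in the globular embryo, so the kyp level stood above all 4 wild-type libraries. AT5G49500 had 56.4 and 112 CPM in kyp 11 and kyp 12, against 3.74 and 3.80 in WT 7 and WT 11 (log2 fold change 4.47 ± 0.57, adjusted p = 0.0186). AT2G20460 had 52 and 194 reads in kyp 11 and kyp 12, against 1 read each in WT 7 and WT 11, a ratio of 130 with a counting interval of 35.5 to 1075 (adjusted p = 0.0186). The seed coat held 1 read of it and the globular library none.

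AT5G49180 had 16.8 CPM in kyp 11 and 21.9 in kyp 12, against 585 in WT 7 and 562 in WT 11. It stood at 814 CPM in the seed coat and 847 in the globular embryo, so kyp was the low group among all 6 libraries (log2 fold change -4.87 ± 0.42, adjusted p = 0.00138). AT1G62500 had 2.59 and 2.12 CPM in kyp 11 and kyp 12, against 125 and 82.9 in WT 7 and WT 11 (log2 fold change -5.48 ± 0.56, adjusted p = 0.00433). Its seed coat level was 199 CPM and its globular level 2.82. When the libraries were thinned to equal depth, AT5G49500 and AT2G20460 no longer passed (adjusted p = 0.102 and 0.191). With the name prefix MC, which kyp 12 and WT 11 share, as a block, 10 genes were called higher and 8 lower. Under the block AT1G64270, AT5G38035, AT3G29078, AT1G69990, NRT1.7, BG3 and LHCA3 joined the calls that were higher. AT3G49270, AT5G41750, AT1G56660, 4CL8, LSU3 and AT5G20750 joined those that were lower (edgeR adjusted p = 0.00423 to 0.0452 over both directions). AT5G20750, of pseudogene biotype, had 21 and 1 reads in kyp 11 and kyp 12, against 223 and 339 in WT 7 and WT 11. The others are each described below or drawn among the separated genes. DESeq2 called 33 higher (0.206%) and 17 lower (0.106%), and at an unadjusted edgeR p under 0.05 there were 465 higher (2.91%) and 350 lower (2.19%).

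To look past these 5 genes, a gene was counted as separated where the lowest value of one group was at least 2-fold above the highest value of the other, with low values set to no less than 3 reads. By this rule 466 genes were higher in both kyp libraries (2.91%) and 215 were lower (1.34%). The rule carries no error rate, and its balance followed the level of the gene. Among 2559 genes with a mean under 20 reads, 247 were higher and 79 lower. At 200 reads or more on average, 3 of 3187 genes were higher and 9 lower. After thinning to equal depth, 341 were higher and 173 lower. Separated genes were spread over the 5 chromosomes, at 2.52 to 3.10% of tested genes higher in kyp and 0.973 to 1.62% lower.

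**Figure D1:**
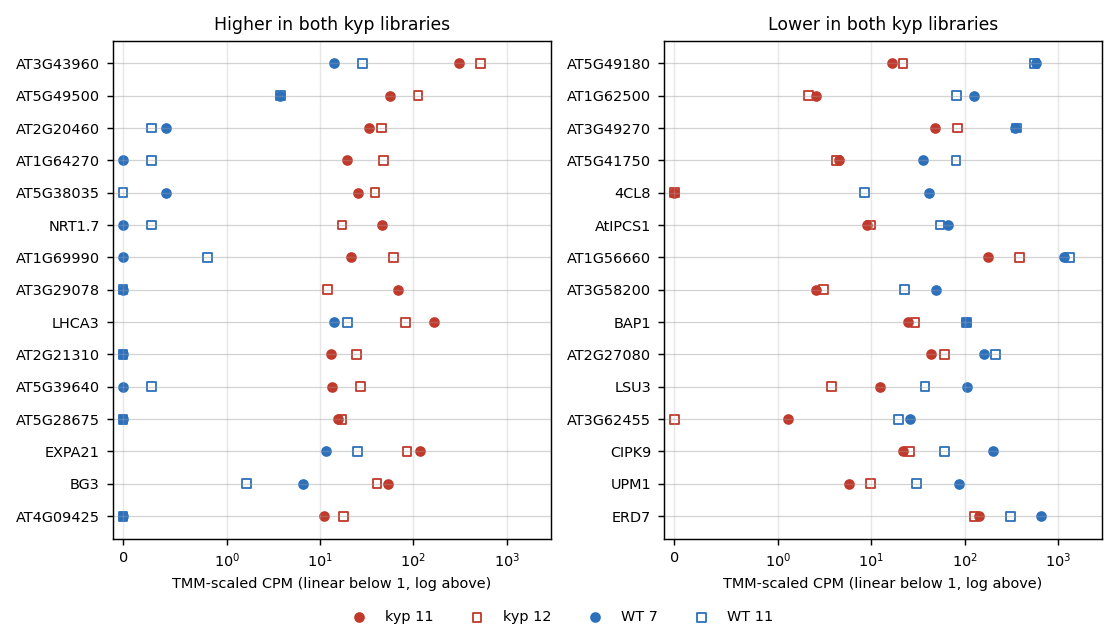
TMM-scaled CPM (x axis, linear below 1 and logarithmic above) of the 15 separated genes with the smallest p in each direction with 20 reads or more on average. Each row is a gene, red points are kyp 11 (filled circle) and kyp 12 (open square), and blue points are WT 7 (filled circle) and WT 11 (open square). The groups do not overlap in any row by construction of the rule, and AT3G29078, AT2G21310, AT5G28675 and AT4G09425 stand at 0 in both WT libraries while 4CL8 stands at 0 in both kyp libraries.

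Loci annotated as pseudogenes were a small part of the separated genes, but a larger part than of all genes tested. They made up 4.29% of the separated genes higher in kyp and 2.33% of those lower, beside 0.669% of all genes tested. The annotation calls the products of the pseudogene loci named here uncharacterized. Of 107 such loci that could be tested, 20 were separated with higher values in kyp and 5 with lower values. That is 18.7% and 4.67% beside 2.91% and 1.34% of all genes. The higher loci were 8 of 34 with a mean under 20 reads, 7 of 39 between 20 and 50 and 5 of 34 above. At these levels 9.65%, 3.63% and 0.783% of all genes were separated higher. The lower loci were 1, 2 and 2 at the same levels, beside 3.09%, 1.70% and 0.720% of all genes. Of 3909 annotated pseudogene loci, 408 had a read in the 4 libraries, and a locus read in 1 group can pass the filter on low counts through that group, so the shares speak only of the 107. The median log2 fold change of the 107 loci was 0.20, near that of all genes. Without kyp 12 it was 0.04 and without WT 11 it was 0.91. A separate family of 16 genes whose products name a transposon, a retroelement or a reverse transcriptase held no separated member, with 6 positive and 10 negative log2 fold changes. Pseudogene loci made up 0.461% of the loci with at least 10 reads in both kyp libraries and 0.397% of those with at least 10 in both WT libraries. Pseudogene loci summed to 2041 CPM in kyp 11 and 3008 in kyp 12, against 1878 in WT 7 and 2563 in WT 11. The groups thus overlap in the sum.

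Reads were then compared at loci seen in one group and almost absent from the other, defined as at least 10 reads in each library of one group and at most 3 in each of the other. Of 22115 loci with a read in the 4 libraries, 64 were read in kyp in this way (0.289%) and 37 in WT (0.167%). Pseudogene loci were 11 of the 64 and 2 of the 37. They were 408 of the 22115 loci with a read (1.85%), so both directions exceeded that share. All 11 read in kyp also had at most 3 reads in the seed coat and the globular library, so they were near silent in the 4 wild-type libraries. Of the 64, 22 were near silent in all wild-type libraries in this way, and 10 of these were protein-coding. After thinning to equal depth, 104 loci (0.483%) were read in kyp and 18 (0.0836%) in WT. The pseudogene counts were then 9 and 2. Without kyp 11, where 1 kyp library decides, 38 pseudogene loci were read in kyp and near silent in all wild-type libraries, and without kyp 12 there were 15.

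Of these 11 loci, AT2G20460 is described above. AT1G64270 had 30 and 203 reads in kyp 11 and kyp 12, against 0 and 1 in WT 7 and WT 11, a ratio of 245 with a counting interval of 43.6 to 9731 (edgeR adjusted p = 0.0618). AT5G38035 had 39 and 165 reads in kyp 11 and kyp 12, against 1 and 0 in WT 7 and WT 11 (ratio 215, interval 38.1 to 8525, adjusted p = 0.0618). AT3G29078 had 105 and 51 reads in kyp 11 and kyp 12 and none in WT 7 or WT 11, which puts kyp at least 38.9-fold higher on average against a floor of 3 reads per library (adjusted p = 0.0936). Reads covered 48.1% of its length in kyp 11 and 17.9% in kyp 12.

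AT2G21310, AT5G28675, AT4G09425, AT1G70010, AT3G43575 and AT5G31087 likewise had no read in either WT library. Their reads ranged from 13 to 24 in kyp 11 and from 14 to 105 in kyp 12. Against the same floor AT2G21310 was on average at least 18.3-fold higher and AT5G28675 at least 15.9-fold higher. AT1G42705 had 10 and 81 reads in kyp 11 and kyp 12, against 0 and 1 in WT 7 and WT 11. For AT1G42705, 57.0% of the length is shared with another locus at high identity, and AT1G64270 overlaps a gene on the other strand, so reads at these loci may belong to a partner. None of the 10 loci beside AT2G20460 passed the edgeR threshold without the prefix block. With it AT3G29078, AT1G64270 and AT5G38035 passed (adjusted p = 0.00423, 0.00555 and 0.0109). DESeq2 called 7 of the 10, with adjusted p-values of 5.92e-05 for AT3G29078 to 0.0436 for AT1G70010, and did not call AT1G42705, AT3G43575 and AT5G31087.

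In the opposite direction AT3G62455 had 2 and 0 reads in kyp 11 and kyp 12, against 62 and 72 in WT 7 and WT 11. AT3G31023, which overlaps another gene, had 1 and 3 reads in kyp 11 and kyp 12, against 15 and 107 in WT 7 and WT 11. Both also had reads in the seed coat, 19 for AT3G62455 and 15 for AT3G31023. A further repeat, Sadhu4-2, of a family of short retroposons first described in Arabidopsis, had 27 and 195 reads in kyp 11 and kyp 12, against 13 and 3 in WT 7 and WT 11. It overlaps the oxygenase gene 2A6, which had nearly the same reads, so their reads cannot be told apart.

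**Figure D2:**
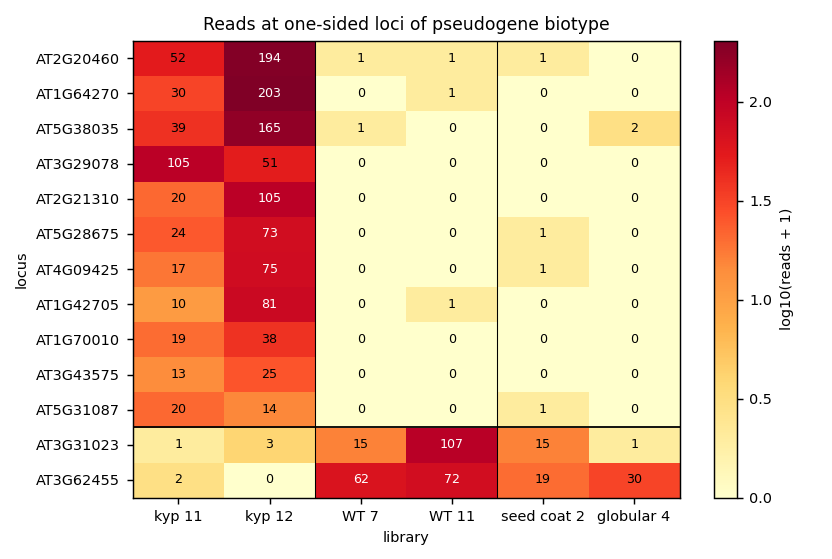
Reads (numbers in the cells, colour on a log10 scale) in the 6 libraries (x axis) at the 13 loci of pseudogene biotype that were read in one group of 2-4 cell embryos and almost absent from the other (y axis). The 11 loci above the line have 10 to 203 reads in kyp and at most 2 in any wild-type library, and the 2 below it have 15 to 107 reads in WT and at most 3 in kyp.

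Some separated genes lay next to each other. Counting tested loci in gene order, 21 runs of neighbours were higher in kyp (45 loci) and 4 were lower (8 loci). Several of the neighbours overlap each other or another gene. Some runs arise in any gene order when 2.91% of genes are separated higher and 1.34% lower. How many would do so was not worked out, so the runs are a description only. Among pairs without overlap, AT1G69990, a leucine-rich repeat receptor-like kinase, had 33 and 262 reads in kyp 11 and kyp 12, against 0 and 3 in WT 7 and WT 11. Its tested neighbour is the pseudogene AT1G70010 named above, and both had no read in the seed coat and globular libraries. AT5G38010, a UDP-glycosyltransferase, had 6 and 101 reads in kyp 11 and kyp 12 and none in WT 7 or WT 11. It lies between AT5G37930, a RING and TRAF-like protein, and the pseudogene AT5G38035. AT5G33390, a glycine-rich protein, had 35 and 100 reads in kyp 11 and kyp 12, against 0 and 6 in WT 7 and WT 11. AT3G29080, too low to be tested, had 54 and 12 reads in kyp 11 and kyp 12 and none in WT, and by its locus number it follows AT3G29078. Among lower runs, the disease resistance genes WRR4 and AT1G56540 were neighbours, as were AT5G03545, a gene expressed on phosphate starvation, and the nucleobase permease NCS1.

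Imprinted genes and Polycomb members were examined because several are silenced by DNA methylation on one parental copy. Of 17 listed genes 16 were found and 13 could be tested. Of these, 10 had a positive and 3 a negative log2 fold change, beside 49.9% and 50.1% of all genes. The median was 0.29, but it changed sign between the pairs, with 0.27 between kyp 11 and WT 7 and -0.17 between kyp 12 and WT 11. MEA, the histone H3 lysine 27 methyltransferase of the seed Polycomb complex, had 18.8 and 11.3 CPM in kyp 11 and kyp 12, against 2.91 and 2.17 in WT 7 and WT 11. FIS2, its zinc finger partner, had 9 and 15 reads in kyp 11 and kyp 12, against 0 and 2 in WT 7 and WT 11, with an overlapping gene on the other strand. Both were separated higher, beside 2.91% of all genes, yet neither passed the test (MEA log2 fold change 2.55 ± 0.92, edgeR adjusted p = 0.901, and FIS2 adjusted p = 0.973). FIS2 has a mean under 20 reads, where 9.65% of all genes were separated higher. MEA lies between 20 and 50 reads, where 3.63% were. A gene can pass the filter on low counts through the group where it is high, as FIS2 may in kyp. MEA had 9.30 CPM in the seed coat and none in the globular embryo. The groups overlapped for the partner subunits FIE and MSI1 and the related SWN and CLF, with FIE at 21.4 and 23.4 CPM in kyp 11 and kyp 12 and 22.4 and 31.8 in WT 7 and WT 11. FWA, an imprinted homeobox gene silenced by methylation of its promoter repeats, had 31.7 and 29.0 CPM in kyp 11 and kyp 12, against 14.9 and 29.9 in WT 7 and WT 11, so the groups overlap. SDC, a methylation-silenced F-box gene, had 16.8 and 0 CPM in kyp 11 and kyp 12, against 3.74 and 1.36 in WT 7 and WT 11, so its kyp reads came from kyp 11 alone.

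MEA and FIS2 are also endosperm markers, the endosperm being the nourishing tissue around the embryo. Of the 13 endosperm markers, 7 were tested and their median log2 fold change was 0.43. Of the 13, 9 had a read in kyp 11 and 9 in kyp 12, against 7 in WT 7 and 9 in WT 11, and EDA31 was at 0 in all. The summed level was 115 CPM in kyp 11 and 60.6 in kyp 12, against 57.3 in WT 7 and 64.9 in WT 11. The type I MADS-box gene PHE1 had 33.7 and 3.77 CPM in kyp 11 and kyp 12, against 27.8 and 8.42 in WT 7 and WT 11. IKU2 had reads in WT 7 alone, 9 of them. The part of endosperm carried along at dissection in the difference of MEA and FIS2 was not tested.

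The machinery of H3K9 and DNA methylation leaned downward. Of 30 genes, 22 had a negative and 8 a positive log2 fold change, beside 50.1% and 49.9% of all genes, with a median of -0.31, which was -0.13 between kyp 11 and WT 7 and -0.42 between kyp 12 and WT 11. None passed the test. HDA6, a histone deacetylase needed for transposon silencing, was the one separated gene, with 13.6 and 11.3 CPM in kyp 11 and kyp 12, against 31.5 and 28.3 in WT 7 and WT 11 (log2 fold change -1.27 ± 0.58, edgeR adjusted p = 0.988), and it overlaps another gene. CMT3, the partner of KYP, had 77.7 and 71.5 CPM in kyp 11 and kyp 12, against 90.06 and 139 in WT 7 and WT 11. Without regard to size, 7 of the 30 had both kyp values below both WT values and 1, the demethylase DME, had both above, beside 15.8% and 17.2% of all genes.

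Embryo patterning genes showed little difference. Of 47 listed genes 31 could be tested, and 13 had a positive and 18 a negative log2 fold change, beside 49.9% and 50.1% of all genes, with a median of -0.13. AIL6, an AP2 factor of the root and shoot meristem that acts beside PLT genes, was the separated member, with 6.48 and 11.1 CPM in kyp 11 and kyp 12, against 0.415 and 0 in WT 7 and WT 11 (edgeR adjusted p = 0.706), and it overlaps a gene on the other strand. This is 3.23% of the tested list, near the 2.91% of all genes separated higher. AIL6 had a mean of 14.5 reads, and under 20 reads 9.65% of all genes were separated higher. MP, the auxin response factor of the embryonic root, had 327 and 295 CPM in kyp 11 and kyp 12, against 287 and 371 in WT 7 and WT 11. The 29 cell cycle genes had a median of -0.13 and no separated member.

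**Figure D3:**
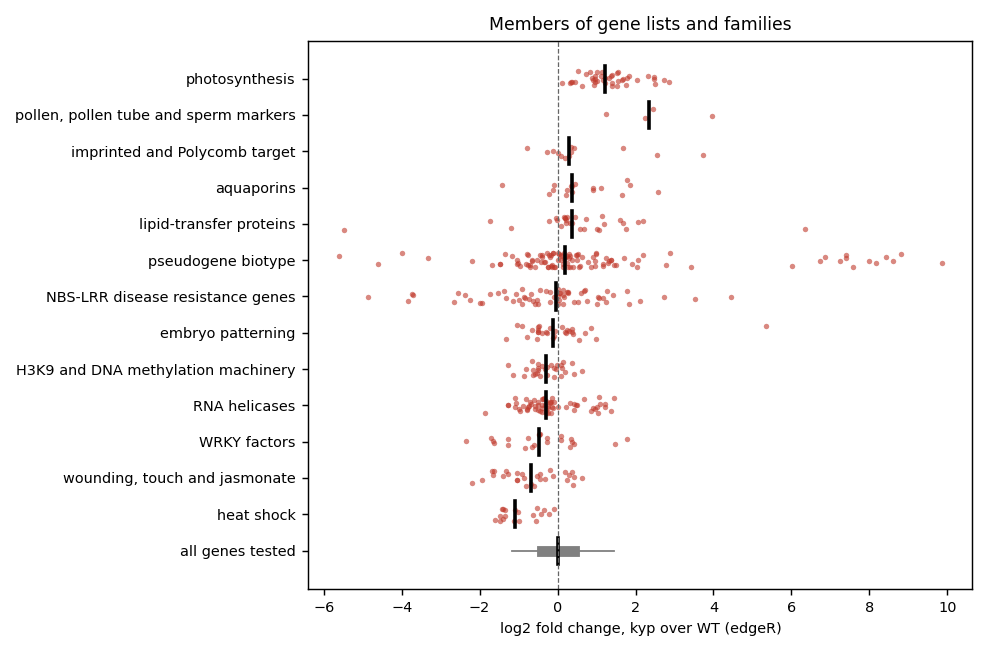
Log2 fold change, kyp over WT (x axis), of each tested member of 13 gene lists and families (y axis, 1 point per gene, vertical scatter without meaning), with the median as a black bar. The bottom row gives the range from the 25th to the 75th percentile (thick bar) and the range from the fifth to the 95th percentile (thin line) of all 15997 genes. All heat shock members lie below 0 and all photosynthesis members above it, and the pseudogene loci include a group of loci beyond 6.

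A list of heat shock genes, chosen with these results known, was lower in kyp. Of 26 listed genes, 21 were found and 19 could be tested. All 19 had a negative log2 fold change, with a median of -1.08, beside 50.1% negative among all genes. For 14 of the 19 both kyp values lay below both WT values, beside 15.8% of all genes. By the 2-fold rule 2 were separated lower, beside 1.34% of all genes. HSP90.1, a stress-induced chaperone, had 68.7 and 95.5 CPM in kyp 11 and kyp 12, against 214 and 221 in WT 7 and WT 11 (log2 fold change -1.40 ± 0.37, edgeR adjusted p = 0.569). AT5G48570, a peptidyl-prolyl isomerase also known as ROF2, had 22.7 and 18.16 CPM in kyp 11 and kyp 12, against 49.4 and 62.8 in WT 7 and WT 11. HSFA2, the transcription factor that sustains the response, had 88.8 and 198 CPM in kyp 11 and kyp 12, against 496 and 315 in WT 7 and WT 11. HSP101, which pulls apart protein aggregates, had 73.2 and 84.0 CPM in kyp 11 and kyp 12, against 300 and 114 in WT 7 and WT 11.

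The groups overlapped for the other 5, HSF4, HSP18.2 and the endoplasmic reticulum chaperones BIP1, BIP2 and BIP3. BIP1 had 165 and 632 CPM in kyp 11 and kyp 12, against 280 and 946 in WT 7 and WT 11. The list summed to 1406 CPM in kyp 11 and 2727 in kyp 12, against 3572 in WT 7 and 4539 in WT 11, and to 1113 in the seed coat and 1194 in the globular embryo. The median was -1.20 between kyp 11 and WT 7 and -0.66 between kyp 12 and WT 11, and stayed between -1.42 and -0.75 without any 1 library. None of the 19 passed the threshold of the fit over all genes. The wider family of heat shock proteins and DnaJ chaperones, taken by product name, showed much less. Of 174 tested, 72 were positive and 102 negative with a median of -0.16. By the 2-fold rule 2 were separated higher and 5 lower, 1.15% and 2.87% beside 2.91% and 1.34% of all genes. HSFA3, a heat shock factor in that family with a gene on the other strand, was separated higher, with 6 and 35 reads in kyp 11 and kyp 12, against 0 and 2 in WT 7 and WT 11 (log2 fold change 4.16 ± 1.62, edgeR adjusted p = 0.937).

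Genes of wounding, touch and jasmonate leaned the same way. Of 38 listed genes 29 could be tested, and 22 had a negative and 7 a positive log2 fold change, with a median of -0.69, beside 50.1% negative among all genes. Both kyp values lay below both WT values for 13 of the 29, beside 15.8% of all genes. BAP1, a membrane-associated negative regulator of cell death, was the separated member, with 24.6 and 29.5 CPM in kyp 11 and kyp 12, against 103 and 104 in WT 7 and WT 11 (log2 fold change -1.93 ± 0.40, edgeR adjusted p = 0.309). DREB2A, a drought and heat factor, had 179 and 133 CPM in kyp 11 and kyp 12, against 345 and 400 in WT 7 and WT 11. JAZ1, a repressor of jasmonate signalling, had 159 and 118 CPM in kyp 11 and kyp 12, against 256 and 251 in WT 7 and WT 11. VSP1, a late jasmonate target, went the other way with 68.7 and 44.6 CPM in kyp 11 and kyp 12, against 44.0 and 29.1 in WT 7 and WT 11. Among 23 WRKY factors, which act in defence, 15 were negative with a median of -0.47, beside 50.1% negative among all genes, and none was separated. WRKY40 had 11.01 and 26.4 CPM in kyp 11 and kyp 12, against 35.7 and 82.9 in WT 7 and WT 11.

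Disease resistance genes of the NBS-LRR class, whose products sense pathogen proteins, differed gene by gene. Of 64 tested, 30 were positive and 34 negative with a median of -0.05, but 7 were separated with lower values in kyp and 4 with higher values, 10.9% and 6.25% beside 1.34% and 2.91% of all genes. All 4 higher members had a mean under 20 reads, where 9.65% of all genes were separated higher, so their share is near the background. The 7 lower members were 2 of 28 under 20 reads, 3 of 22 between 20 and 50 and 2 of 14 above, beside 3.09%, 1.70% and 0.720% of all genes. At an unadjusted edgeR p under 0.05, 10 of the 64 were lower and 1 higher, beside 2.19% and 2.91% of all genes. AT5G41750 had 4.54 and 4.25 CPM in kyp 11 and kyp 12, against 36.1 and 81.0 in WT 7 and WT 11 (log2 fold change -3.74 ± 0.63, edgeR adjusted p = 0.0936). WRR4, which confers resistance to white rust, had 0 and 3 reads in kyp 11 and kyp 12, against 44 and 42 in WT 7 and WT 11, a ratio of WT to kyp of 27.2 with a counting interval of 9.01 to 135. Its neighbour AT1G56540 had 2.59 and 3.30 CPM in kyp 11 and kyp 12, against 11.6 and 26.9 in WT 7 and WT 11. AT5G18360 went the other way with 19 and 24 reads in kyp 11 and kyp 12, against 2 and 0 in WT 7 and WT 11. NDR1, a membrane protein needed by several resistance genes, had 0 and 4 reads in kyp 11 and kyp 12, against 16 and 20 in WT 7 and WT 11.

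Photosynthesis genes were higher in kyp as a list, with most of the difference in kyp 11. All 43 genes, beside 49.9% of all genes, had a positive log2 fold change with a median of 1.22, with 1.85 between kyp 11 and WT 7 and 0.25 between kyp 12 and WT 11, and a median of 0.29 without kyp 11. LHCA3, which gathers light for photosystem I, had 167 and 82.3 CPM in kyp 11 and kyp 12, against 14.1 and 19.6 in WT 7 and WT 11 (log2 fold change 2.87 ± 0.48, edgeR adjusted p = 0.0936). PETE1, PSAN (which overlaps a gene on the other strand) and LHCB4.1 were also separated. The wider family of light-harvesting and photosystem proteins, taken by product name, had exceptions. Of 64 tested, 55 were positive and 9 negative with a median of 0.99. By the 2-fold rule 4 were separated higher and 1 lower, beside 2.91% and 1.34% of all genes. The list of 43 genes summed to 7167 CPM in kyp 11 and 2647 in kyp 12, against 2035 in WT 7 and 2324 in WT 11, and to 9802 in the seed coat. Of the separated genes higher in kyp, 44.4% had a seed coat level at least 2-fold above the globular level, as had 41.4% of those lower in kyp and 28.8% of all genes. The 8 green tissue markers summed to 2752 CPM in kyp 11 and 1067 in kyp 12, against 793 in WT 7 and 842 in WT 11, and to 2874 in the seed coat, with all 8 positive. The part of green maternal tissue in the difference was not tested.

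**Figure D4:**
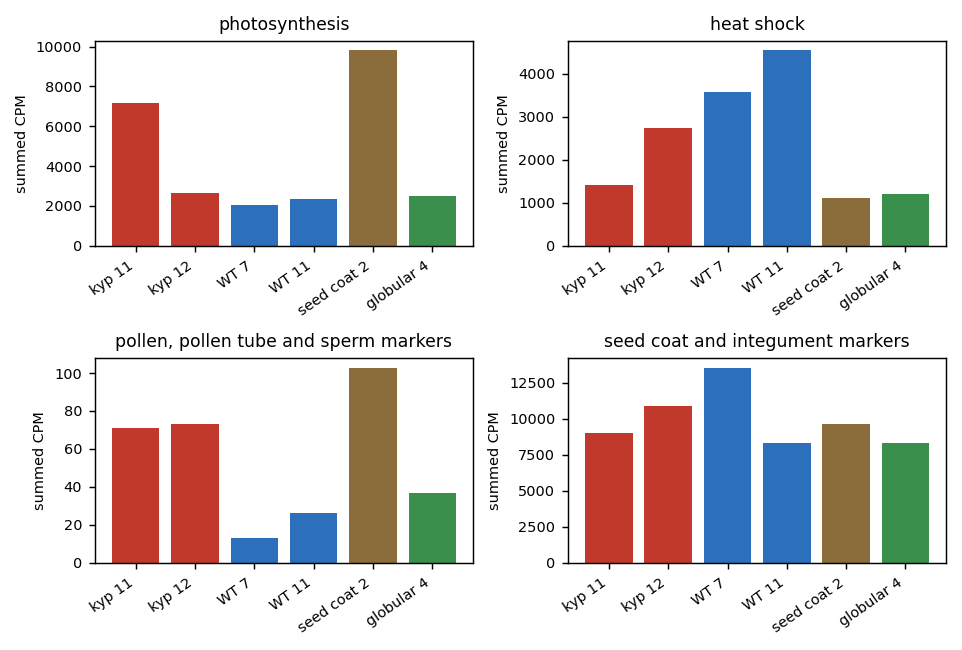
Summed CPM (y axis, from 0) of 4 gene lists in the 6 libraries (x axis), with kyp in red, WT in blue, seed coat in brown and globular in green. For heat shock genes both kyp bars (1406 and 2727) stand below both WT bars (3572 and 4539), for photosynthesis the kyp 11 bar (7167) stands far above kyp 12 (2647), and the seed coat marker bars of kyp and WT overlap.

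Pollen markers were low, and their summed level was higher in kyp. Of 16, 4 passed the filter on low counts. These 4 had both kyp values above both WT values, beside 17.2% of all genes. A gene can pass the filter through the group where it is high, so this count is no support for a difference. Of the 16, 9 had a read in kyp 11 and 12 in kyp 12, against 7 in WT 7 and 11 in WT 11. VGD1, a pectin methylesterase that lets the pollen tube grow through the pistil, had 18.1 and 19.3 CPM in kyp 11 and kyp 12, against 0.830 and 6.79 in WT 7 and WT 11. VGDH1, its neighbour and homologue, had 18 and 17 reads in kyp 11 and kyp 12, against 0 and 3 in WT 7 and WT 11. The summed level of the 16 was 71.3 CPM in kyp 11 and 73.1 in kyp 12, against 13.3 in WT 7 and 26.1 in WT 11, and 103 in the seed coat. The sperm and pollen genes DUO1, GEX3, AGL66 and TIP1;3 had no read in the 4 embryo libraries, and the sperm fusion gene HAP2 had 1 to 3 in each. The pollen allergen-like gene AT5G45880 had 38 and 53 reads in kyp 11 and kyp 12, against 0 and 3 in WT 7 and WT 11, and 68 in the seed coat. The part of pollen tubes in these differences was not tested.

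Wall, cuticle and transport genes were found on both sides. Of 43 pectin methylesterases and inhibitors, 5 were separated higher and 2 lower, beside 2.91% and 1.34% of all genes. AT1G14890, an inhibitor-class gene, had 31.7 and 30.0 CPM in kyp 11 and kyp 12, against 7.89 and 8.15 in WT 7 and WT 11. PME1 (AT1G53840) had 79.7 and 80.0 CPM in kyp 11 and kyp 12, against 207 and 184 in WT 7 and WT 11. Of 94 extensins and proline-rich proteins, 8 were separated higher and 7 lower, beside the same 2.91% and 1.34%. AT3G49270, an extensin-like gene, had 47.9 and 84.0 CPM in kyp 11 and kyp 12, against 343 and 364 in WT 7 and WT 11 (log2 fold change -2.41 ± 0.40, edgeR adjusted p = 0.0936). PRP2 had 23.3 and 33.0 CPM in kyp 11 and kyp 12, against 4.98 and 1.36 in WT 7 and WT 11. CESA9, a cellulose synthase of the seed coat wall, had 7.13 and 13.4 CPM in kyp 11 and kyp 12, against 0.415 and 1.63 in WT 7 and WT 11.

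Of 29 lipid-transfer genes, 23 were positive with a median of 0.38, beside 49.9% positive among all genes, and beside the called AT1G62500 there were 4 separated higher members, beside 2.91% of all genes. Of these AT2G14846 had 75.2 and 45.7 CPM in kyp 11 and kyp 12, against 18.7 and 18.5 in WT 7 and WT 11 (log2 fold change 1.69, edgeR adjusted p = 0.674). The other 3 had at most 12.03 CPM in kyp. SHN3, an AP2 factor of cuticle formation, had 5.83 and 4.95 CPM in kyp 11 and kyp 12, against 0.415 and 0.272 in WT 7 and WT 11, and 20.7 in the seed coat. Among sphingolipid enzymes, AtIPCS1, which makes inositol phosphorylceramide, had 9.07 and 9.91 CPM in kyp 11 and kyp 12, against 66.4 and 54.6 in WT 7 and WT 11 (log2 fold change -2.66 ± 0.51, edgeR adjusted p = 0.219).

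Of 17 aquaporins, which let water cross membranes, 13 were positive with a median of 0.38, beside 49.9% positive among all genes. By the 2-fold rule 3 were separated higher and 1 lower, beside 2.91% and 1.34% of all genes. PIP2;5 had 260 and 274 CPM in kyp 11 and kyp 12, against 102 and 54.1 in WT 7 and WT 11 (log2 fold change 1.78 ± 0.41, edgeR adjusted p = 0.421), and its seed coat level of 102 CPM was below both kyp values. PIP2A had 48.6 and 25.5 CPM in kyp 11 and kyp 12, against 8.30 and 4.08 in WT 7 and WT 11, with 105 in the seed coat. PIP1A went the other way with 11.7 and 14.9 CPM in kyp 11 and kyp 12, against 32.4 and 39.7 in WT 7 and WT 11.

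Some single transporters differed widely. NRT1.7, which loads nitrate into the phloem, had 71 and 73 reads in kyp 11 and kyp 12, against 0 and 1 in WT 7 and WT 11, a ratio of 152 with a counting interval of 26.8 to 6029 (edgeR adjusted p = 0.0796). SUC2, the sucrose loader of the phloem, had 29 and 69 reads in kyp 11 and kyp 12, against 2 in each WT library. Both were present in wild-type seed coat, NRT1.7 at 34.1 CPM and SUC2 at 39.3 CPM, and SUC2 had 8.46 CPM in the globular embryo. PHT1;7, a phosphate transporter, had no read in either kyp library, against 20 in WT 7 and 17 in WT 11. On average this is at least 4.87-fold lower in kyp at the floor of 3 reads per library.

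Further separated genes, of varied depth, lay outside the groups above. BG3, a secreted beta-1,3-glucanase, had 53.1 and 40.8 CPM in kyp 11 and kyp 12, against 6.64 and 1.63 in WT 7 and WT 11, with 365 in the globular embryo and 0.517 in the seed coat. ARI2, a RING ubiquitin ligase, had 59.6 and 39.6 CPM in kyp 11 and kyp 12, against 8.30 and 7.61 in WT 7 and WT 11. The gene AT3G49910, named as a translation protein with an SH3-like fold, had 866 and 1054 CPM in kyp 11 and kyp 12, against 386 and 395 in WT 7 and WT 11. 4CL8, an AMP-dependent ligase, had no read in kyp, against 101 in WT 7 and 31 in WT 11. On average this is at least 19.0-fold lower in kyp at the floor of 3 reads per library (edgeR adjusted p = 0.187). LSU3, a gene induced by sulfur limitation, had 12.3 and 3.77 CPM in kyp 11 and kyp 12, against 105 and 37.8 in WT 7 and WT 11. CIPK9, a kinase of potassium nutrition, had 22.03 and 25.7 CPM in kyp 11 and kyp 12, against 202 and 60.9 in WT 7 and WT 11. ERD7, a dehydration-induced gene, had 143 and 126 CPM in kyp 11 and kyp 12, against 660 and 311 in WT 7 and WT 11.

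RNA helicases, which remodel RNA in splicing and ribosome assembly, showed a small shift that was alike in both library pairs. Of 63, 44 were negative and 19 positive, beside 50.1% and 49.9% of all genes, with a median of -0.30, that is -0.29 between kyp 11 and WT 7 and -0.30 between kyp 12 and WT 11. AT4G16630 was the separated member, with 82.9 and 74.3 CPM in kyp 11 and kyp 12, against 169 and 167 in WT 7 and WT 11 (log2 fold change -1.10 ± 0.36, edgeR adjusted p = 0.786). This is 1.59% of the family, near the 1.34% of all genes separated lower. The 312 ribosomal protein genes had a median of -0.13. The median over all genes was 0.01 in each pair.

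**Figure D5:**
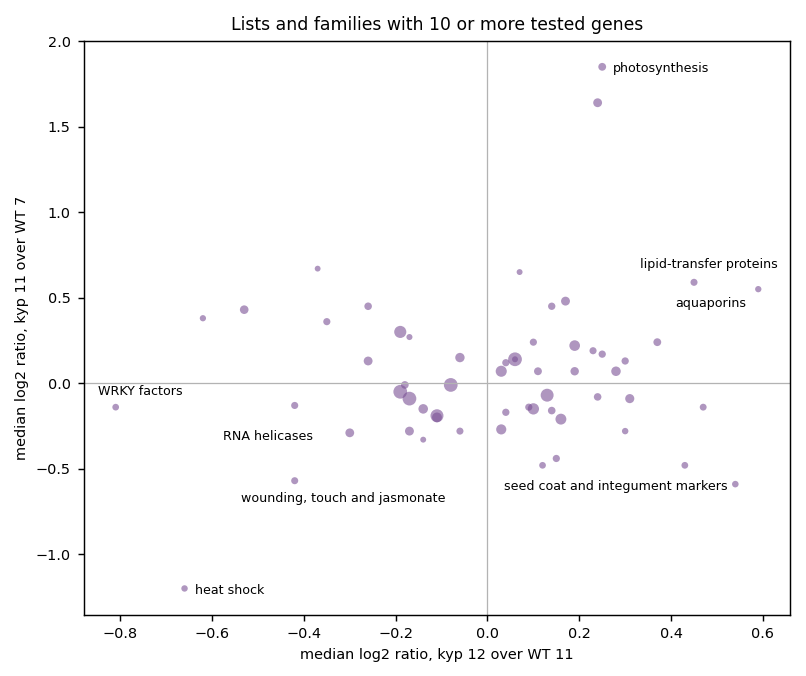
Median log2 ratio of each list or family with at least 10 tested genes, between kyp 12 and WT 11 (x axis) and between kyp 11 and WT 7 (y axis), with point area growing with the number of genes. Heat shock (-0.66 and -1.20) lies low in both pairs and aquaporins (0.59 and 0.55) high in both, while photosynthesis (0.25 and 1.85) is far higher in the pair with kyp 11 and seed coat markers (0.54 and -0.59) change sign.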

How the data were processed

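The authors deposited read counts per transcript, whole numbers in kyp 11, WT 7, the seed coat and the globular library. In kyp 12 and WT 11 the deposited values were taken as estimated counts, since 10.8% and 12.7% of their transcripts hold fractional values, and were rounded with 0.5 upward. The covered bases of each transcript stand beside them, per the file headers. Aligner, genome build and annotation are not given in the sources used here, and the labels' protocols (PicoPure RNA, NuGEN linear amplification, SOLiD sequencing) do not state that strand was kept. Genes that overlap another gene or share 50% or more of their length with another locus at 95% identity or more (BLAST 2.17.0) were called uncertain. Reads carry no molecular identifiers, so counting intervals (95%, Clopper-Pearson) cover counting error only.

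Of 37813 transcripts present in all files, each of 32140 loci was represented by its isoform with most reads. Names, products and biotypes came from the RefSeq annotation of TAIR10.1, which held 31572 of the loci. The 4 libraries were fitted in edgeR 4.0.16 under R 4.3.3. Low genes were removed by filterByExpr (min.count = 10), scaling was by TMM, and the quasi-likelihood F test had 2 residual degrees of freedom, with Benjamini-Hochberg adjustment at 0.05. The biological coefficient of variation was 0.475. The fit was tested on simulated counts. DESeq2 1.42.0 was an alternative. Ratios within library pairs used log2(CPM + 1).

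Members, gene lists and families were chosen with earlier results of these data known, and the rule for one-sided loci after seeing them. The named genes are KYP, the called genes, the 15 separated genes with the smallest p in each direction with a mean of at least 20 reads, up to 4 members per list with the largest gap, and separated neighbours. Other members of a list were picked for their role, with their values seen.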

Additional observations from a re-analysis of the deposited data

How the results depend on the processing

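None of the genes called by edgeR changed direction under the alternatives run. Of the genes named with values or as list members, 12 with small differences changed sign when 1 library was left out. Their log2 fold changes then ranged from -0.94 to 0.23 for BIP3, -0.26 to 0.11 for MP, -2.24 to 1.09 for PHE1, -0.54 to 0.21 for CLF, -0.12 to 0.85 for SWN, -0.91 to 0.04 for HSF4, -1.46 to 0.13 for BBM, -1.89 to 0.52 for BIP1, -2.40 to 0.10 for BIP2, -0.20 to 0.46 for MSI1, -0.29 to 0.60 for WOX2 and -2.44 to 1.05 for HSP18.2. PHE1 also stood at -0.01 without a filter, -0.00 in the fit over all 6 libraries and -0.40 with the prefix block. SDC had too few reads to be fitted without kyp 11. Genes called higher and lower by edgeR numbered 3 and 2. They numbered 33 and 17 with DESeq2, 75 and 31 without a filter on low counts, 10 and 4 in a fit over all 6 libraries, and 10 and 8 with the name prefix as a block. Thinning to equal depth left 1 higher. Leaving out 1 library gave 4 to 78 higher and 4 to 48 lower: 17 and 13 without kyp 11, 78 and 48 without kyp 12, 4 and 4 without WT 7, and 77 and 38 without WT 11. Separated genes numbered 919 higher and 582 lower at a 1.5-fold gap, 94 and 19 at a 4-fold gap, and 74 and 68 with a mean of at least 50 reads. Without 1 library they numbered 924 to 1826 higher and 756 to 882 lower, since fewer values must be separated. The settings for one-sided loci were chosen after seeing the data. Loci read in kyp numbered 104 and in WT 18 after thinning. Without 1 library they numbered 131 to 460 in kyp and 98 to 320 in WT, their pseudogene loci 13 to 41 in kyp and 5 to 9 in WT, and those near silent in all wild-type libraries 12 to 38. No paired analysis was possible because the groups share only the sample number 11, and the block on the name prefix is a batch term that happens to hold 1 library of each group, with no label that pairs them. Depth limits low genes: a count of 0 allows up to 3 reads in a library, and kyp 11 is the shallowest.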
